A study of Mus musculus with 6 samples.

Results

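*Acadsb*, *Gcdh*, *Mcee*, *Mut* and *Aldh2* are the 5 genes, of 84 on a real-time PCR array of fatty acid metabolism, whose enzymes act in the breakdown of branched-chain amino acids, lysine and propionyl-CoA or of aldehydes. They were chosen by the role of the enzyme that the symbol of their well names, with earlier results of these data known. RNA came from 3T3-L1 cells, an established mouse fibroblast line, induced with insulin, dexamethasone and IBMX and used as mature adipocytes on day 14. 3 samples had received 500 ng/ml recombinant murine IL-15 (rmIL-15) for 24 hours and 3 samples were untreated (0 ng/ml), with both groups differentiated in the same way. The groups are those of the sample titles, whereas a further label of each sample, the activation agent, has them reversed, so every direction given here rests on the titles. A single line in culture is the model here, and nothing states that samples of a group came from separate cultures, so p-values measure only the spread between these samples.

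Branched-chain amino acids and lysine are broken down in mitochondria by chains of reactions that resemble fatty acid oxidation. Isoleucine, valine and odd-chain fatty acids all yield propionyl-CoA, which is carboxylated to methylmalonyl-CoA and then turned into succinyl-CoA, an intermediate of the citric acid cycle. Mature adipocytes are known to take up and break down branched-chain amino acids. Within this scheme *Acadsb* encodes the short/branched-chain acyl-CoA dehydrogenase, which oxidises the isoleucine derivative 2-methylbutyryl-CoA, and *Gcdh* encodes glutaryl-CoA dehydrogenase of lysine and tryptophan breakdown. *Mcee* encodes the epimerase that converts one methylmalonyl-CoA form into the other, and *Mut* (now *Mmut*) encodes the vitamin B12-dependent mutase that makes succinyl-CoA. *Aldh2* encodes the mitochondrial aldehyde dehydrogenase, known for the oxidation of acetaldehyde and of aldehydes from lipid peroxidation.

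Promoter sequence was found for 3 of the 5 genes, *Acadsb*, *Mcee* and *Gcdh*, in the RefSeq table of GRCm38.p6. All 3 that were found are shown, and no Ct value entered this choice. Each run is the 250 bases before the annotated start of the gene, 5′ to 3′, with capitals for the GC box (GGGCGG) and the CCAAT box (CCAAT) on either strand.
Acadsb, chr7:131410351-131410600, plus strand: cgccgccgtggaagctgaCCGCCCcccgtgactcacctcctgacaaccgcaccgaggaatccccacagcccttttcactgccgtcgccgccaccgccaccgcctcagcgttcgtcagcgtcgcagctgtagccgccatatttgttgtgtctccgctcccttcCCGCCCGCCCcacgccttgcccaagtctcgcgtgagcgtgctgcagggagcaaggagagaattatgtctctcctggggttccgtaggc
Mcee, chr7:64392372-64392621, plus strand: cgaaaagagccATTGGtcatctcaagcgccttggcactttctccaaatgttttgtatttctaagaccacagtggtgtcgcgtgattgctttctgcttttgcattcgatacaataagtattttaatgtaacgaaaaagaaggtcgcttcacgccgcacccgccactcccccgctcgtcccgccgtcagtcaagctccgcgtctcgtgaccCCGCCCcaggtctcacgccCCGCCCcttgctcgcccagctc
Gcdh, chr8:84893922-84894171, minus strand: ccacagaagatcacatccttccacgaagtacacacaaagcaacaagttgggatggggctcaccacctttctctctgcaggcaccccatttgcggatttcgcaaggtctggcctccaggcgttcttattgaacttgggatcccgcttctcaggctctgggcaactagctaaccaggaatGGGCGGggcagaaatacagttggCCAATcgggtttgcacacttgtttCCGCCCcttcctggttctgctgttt
The GC box occurred 3 times in the *Acadsb* window, with a pair of overlapping copies, and 2 times each in those of *Mcee* and *Gcdh*. Of 32851 promoter windows of this length, 32.7% held it. The CCAAT box occurred 1 time each in *Mcee* and *Gcdh* and not in *Acadsb*, and 33.8% of all windows held it. GC content was 65.6% for *Acadsb*, 54.8% for *Mcee* and 53.6% for *Gcdh*. No match was found in the 3 windows, on either strand, for TATAAA (12.4% of all windows), TGACGTCA (1.55%), TTGCGCAA (0.164%) or GCATGCGC (2.26%). The same held for AGGTCA (14.0%) and for TCAAGGTCA (0.387%), which contains it. These matches describe letters and were not set against the measurements.

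Every one of the 5 genes was measured well inside the range of the assay. Each well gives a threshold cycle (Ct), the cycle at which its fluorescence crosses a set level, so an earlier Ct means more RNA, by 1 cycle for each doubling if amplification is perfect. All 5 genes were under Ct 35, the limit of detection used here, in all 6 samples, and their raw Ct lay between 22.8 and 26.4. The adipocyte label was set against markers, of which *Fabp4*, the main fatty acid carrier of fat cells, had Ct of 16.4 to 17.1. All 5 adipocyte markers had a mean Ct below 26, a limit that does not single out adipocyte genes. At least 38 of the 84 genes on the plate were below it. These came up before the well annotated *Gapdh*, whose mean was 25.4 with rmIL-15 and 25.5 without. None of the 8 markers of liver, intestine, muscle or brain on the plate had a mean below 26, and *Fabp1* of liver and *Fabp6* of intestine were above 35 or undetermined on every plate. Others of these markers were under Ct 35 on every plate. They were *Acsm3* of liver (27.2 to 29.6), *Cpt1c* of brain (27.7 to 29.0), and *Fabp3* and *Cpt1b* of muscle (30.6 to 31.9). On each plate 71 to 74 of the 84 genes were under Ct 35, and the positive PCR control had a mean between 19.2 and 19.3. The reverse transcription control was less even, with means from 21.95 in untreated replicate 2 to 22.85 in rmIL-15 replicate 1. It was at 22.47 in untreated replicate 3 and 22.45 in rmIL-15 replicate 3.

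Raw Ct did not separate the groups for any of the 5 genes. *Mut* had raw Ct of 23.46, 22.90 and 23.31 in rmIL-15 samples, against 22.91, 22.80 and 23.54 in untreated samples. *Acadsb* had raw Ct of 23.89, 23.58 and 23.79 with rmIL-15, against 23.41, 23.50 and 23.87 without. *Mcee* had raw Ct of 24.93, 24.44 and 24.80 with rmIL-15, against 24.44, 24.50 and 24.76 without. For all 3 genes the rmIL-15 mean was later, by 0.145 cycles for *Mut*, 0.156 for *Acadsb* and 0.159 for *Mcee*, and the ranges overlapped. *Gcdh* had raw Ct of 25.35, 24.40 and 24.77 with rmIL-15, against 24.30, 24.50 and 25.72 without. *Aldh2* had raw Ct of 25.81, 25.52 and 26.10 with rmIL-15, against 25.39, 25.66 and 26.40 without. The means of these 2 genes differed by -0.00055 and -0.0072 cycles, and untreated replicate 3 gave the latest Ct for both. Exact permutation tests (two-sided) gave p = 0.4 for *Acadsb* and *Mcee*, p = 0.8 for *Mut* and p = 1 for *Gcdh* and *Aldh2*, where 0.1 is the smallest p that 3 samples against 3 allow. Groups did not overlap in raw Ct for 0 of the 5 genes, and for 8.11% of the 74 genes tested on the plate.

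**Figure D1:**
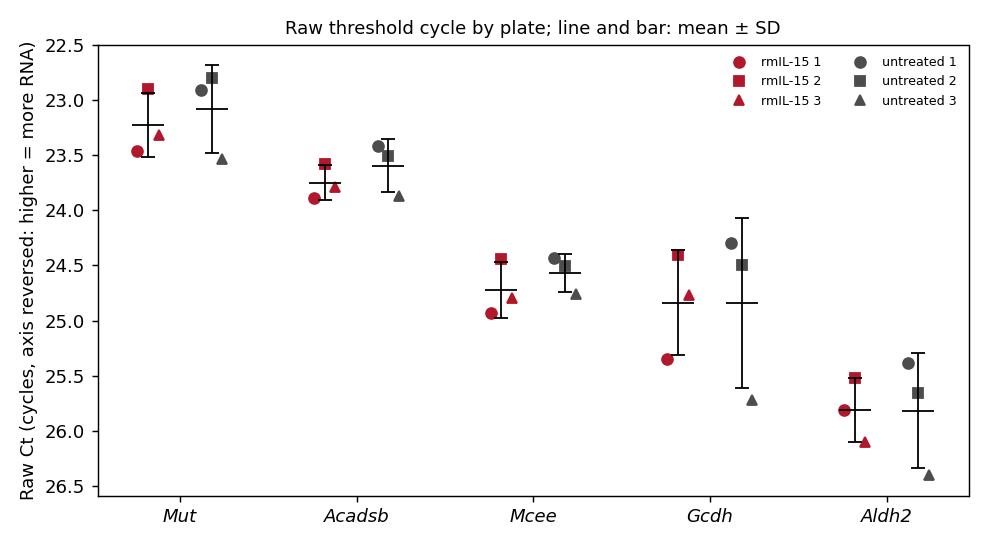
Raw Ct in cycles (vertical axis reversed, so that more RNA is higher) of the 5 genes in 3 rmIL-15 and 3 untreated samples, 1 point per plate, with mean and SD. The groups overlap for every gene, and untreated replicate 3 stands lowest for *Mut*, *Gcdh* and *Aldh2*.

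The study's methods normalize to GAPDH, so each gene's Ct was taken from the Ct that its own plate gave for the well annotated *Gapdh*, which yields a log2 level relative to that well. *Gapdh* is an abundant glycolytic enzyme, yet 38 of the 84 genes came up before this well on average, so whether the well is annotated correctly is in doubt. On this scale all 5 genes had a lower mean with rmIL-15, and none passed limma at an adjusted p under 0.05, nor did any of the 74 genes tested. Over all 74 genes tested 53 were lower in sign, the median log2 fold change was -0.11, and that of the 5 genes was -0.17. At an unadjusted p under 0.05, 0 of the 5 genes and 9.46% of the 74 genes tested passed.

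*Mut*, the mutase, was the gene whose groups separated. Its normalized level was 2.16, 2.26 and 2.20 in rmIL-15 samples, against 2.33, 2.38 and 2.43 in untreated samples. All rmIL-15 values lay below all untreated ones (two-sided exact permutation p = 0.1, the lowest value that the design allows). The mean was 2.21 ± 0.050 (SD, n = 3) with rmIL-15 and 2.38 ± 0.050 (SD, n = 3) without. The log2 fold change of *Mut* was thus -0.17, with a standard error of 0.099 and limma's adjusted p at 0.60. This is 0.886 of the untreated level, with a 95% interval of 0.748 to 1.05. Separation in this direction was seen for 1 of the 5 genes and for 14.9% of the 74 genes tested. With each of the other references tried the *Mut* values of the groups overlapped.

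*Mcee*, which acts just before *Mut*, had normalized levels of 0.69, 0.72 and 0.72 in rmIL-15 samples, against 0.81, 0.68 and 1.21 in untreated samples. The groups overlapped because untreated replicate 2 was the lowest of all 6 samples, and untreated replicate 3 stood highest. On the log2 scale rmIL-15 samples differed by -0.19 (standard error 0.16; limma, adjusted p = 0.69). The ratio was 0.878 of the untreated level (95% interval 0.665 to 1.16). Without untreated replicate 3 it was -0.033 on the log2 scale.

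*Acadsb*, the dehydrogenase of isoleucine breakdown, had normalized levels of 1.74, 1.58 and 1.73 in rmIL-15 samples, against 1.83, 1.68 and 2.10 in untreated samples. Untreated replicate 2 fell among the rmIL-15 values, and untreated replicate 3 was highest, as for *Mcee*. The difference was -0.19 on the log2 scale (standard error 0.15, limma adjusted p = 0.69), and -0.070 without untreated replicate 3. The ratio was 0.879 of the untreated level (95% interval 0.686 to 1.13). Relative to the well annotated *B2m*, which the authors' normalized values subtract, *Acadsb* was at -5.17, -5.22 and -5.32 in rmIL-15 samples, against -5.10, -5.01 and -5.09 in untreated samples. There all rmIL-15 values lay below all untreated ones (exact permutation test, two-sided, p = 0.1), and the mean difference was -0.17 (standard error 0.14, limma adjusted p = 0.84). With this reference 1 of the 5 genes, *Acadsb*, and 12.2% of the 74 genes tested separated in this direction.

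*Gcdh*, the other acyl-CoA dehydrogenase of amino acid breakdown, had normalized levels of 0.28, 0.76 and 0.75 in rmIL-15 samples, against 0.95, 0.68 and 0.25 in untreated samples. The lowest values of the groups were nearly equal, in rmIL-15 replicate 1 and untreated replicate 3. The difference was -0.029 (standard error 0.23, limma adjusted p = 0.96), and its 95% interval of 0.657 to 1.46 of the untreated level was the widest of the 5 genes. *Aldh2* had normalized levels of -0.18, -0.36 and -0.58 in rmIL-15 samples, against -0.14, -0.48 and -0.43 in untreated samples. Its difference was -0.022 (standard error 0.16, limma adjusted p = 0.96), which is 0.985 of the untreated level (95% interval 0.748 to 1.30). The sign of both genes was positive with the well annotated *Gusb* as reference, and likewise once every plate had been centred on its median gene.

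**Figure D2:**
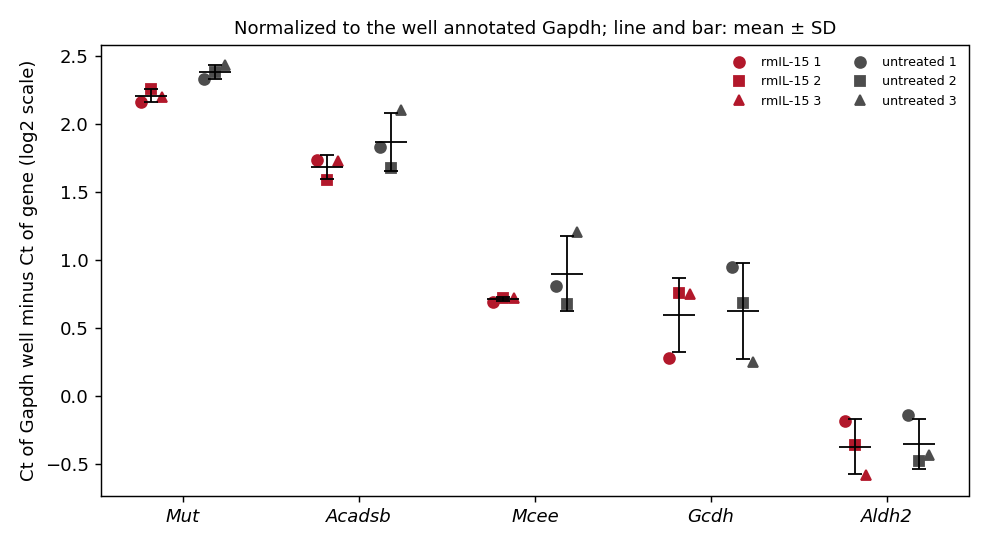
Level relative to the well annotated *Gapdh* (log2 scale, Ct of that well minus Ct of the gene) in 3 rmIL-15 and 3 untreated samples, with mean and SD. Only for *Mut* do the groups not overlap, at 2.16 to 2.26 with rmIL-15 and 2.33 to 2.43 without.

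A change of reference moved all genes alike. Against the well annotated *Gapdh*, the median of the 74 genes tested moved by 0.10 with the well annotated *Gusb* and by -0.35 with that annotated *Hsp90ab1*. The *Hsp90ab1* well stood out in untreated replicate 1, at Ct 19.5, while the other 5 plates had 18.5 to 18.9. *Mut*, *Acadsb* and *Mcee* were lower in sign with all 7 references, at -0.071 to -0.52, -0.082 to -0.53 and -0.084 to -0.54 on the log2 scale. A gene lower with the well annotated *Gusb*, which moved the median highest, was lower with all 7. That held for 38 of the 74 genes tested. Set against the median of the 74 genes, which needs no reference, *Mcee* was at -0.077, *Acadsb* at -0.075 and *Mut* at -0.063, while *Gcdh* was at 0.082 and *Aldh2* at 0.089. In the order of log2 fold changes from the lowest, they held places 26, 28, 32, 51 and 52 of 74, near the middle of the plate.

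**Figure D3:**
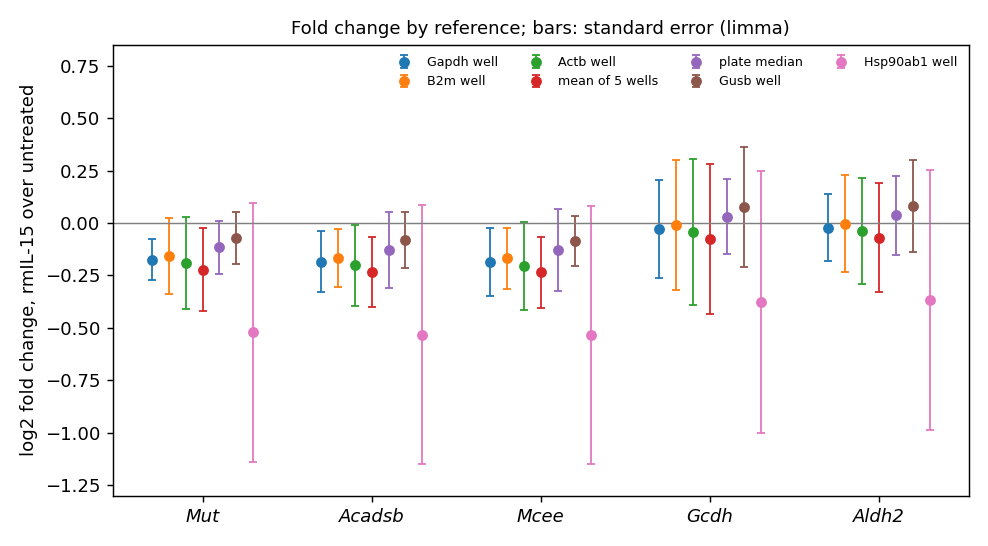
Log2 fold change of rmIL-15 over untreated (points, with standard error from limma) for the 5 genes with each of 7 references. *Mut*, *Acadsb* and *Mcee* lie below 0 with every reference, as do 38 of the 74 genes tested. *Gcdh* and *Aldh2* lie on both sides of 0.

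Differences between wells of the same plate need no reference and set the genes in order. *Mut* was the earliest, ahead of *Acadsb* by 0.33 to 0.71 cycles on all 6 plates. *Acadsb* preceded *Mcee* by 0.87 to 1.05 cycles on all 6 plates, at 1.05, 0.87 and 1.01 in rmIL-15 samples and 1.02, 1.00 and 0.89 in untreated samples. *Mcee* and *Gcdh* did not differ beyond their spread, with *Gcdh* later on 2 plates and earlier on 4 (-0.14 to 0.96 cycles). *Aldh2* was the latest, after *Gcdh* by 0.46 to 1.33 cycles on all 6 plates. How efficiently each primer pair amplifies is not given in the sources used here, so this is an order of Ct and may not be one of RNA amounts.

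The treatment left these differences overlapping between the groups in all 10 pairs. Of the 2701 pairs of the 74 genes tested, 14.6% did not overlap. The mean distances among *Mut*, *Acadsb* and *Mcee* differed between rmIL-15 and untreated samples by 0.0021 cycles for *Mcee* minus *Acadsb*, 0.011 for *Acadsb* minus *Mut* and 0.013 for *Mcee* minus *Mut*. When 1 sample was left out they ranged from -0.037 to 0.056, from -0.079 to 0.11 and from -0.12 to 0.12 cycles. *Aldh2* minus *Gcdh* differed by -0.0067 cycles over all 6 plates, by 0.25 without rmIL-15 replicate 1 and by -0.19 without rmIL-15 replicate 3. The 6 distances from *Gcdh* or *Aldh2* to the first 3 genes differed by -0.15 to -0.17 cycles, within the SD of each. Without untreated replicate 3 they were -0.087 to 0.18 cycles, with *Gcdh* minus *Mcee* the highest, and without untreated replicate 1 *Gcdh* minus *Mcee* was at -0.36. The 10 pairs thus gave no grouping of the 5 genes that was kept when 1 sample was left out.

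Of the 5 genes, *Gcdh* varied most between plates in raw Ct, with an SD of 0.573 cycles over all 6. It followed *Acadsb* by 1.46, 0.82 and 0.98 cycles in rmIL-15 samples and by 0.89, 0.99 and 1.85 cycles in untreated samples, so that rmIL-15 replicate 1 and untreated replicate 3 were the high ones, one in each group. The SD of this distance over the 6 plates was 0.404 cycles, against 0.0743 for *Mcee* minus *Acadsb*, and the median over all 2701 pairs was 0.388. The same 2 plates ran late for much of the array. Each of the 74 genes was compared with its own mean Ct over the 6 plates. The median of these deviations was 0.245 and 0.379 cycles there, and between -0.271 and 0.0387 on the others. On these plates 39 of the 74 genes had their 2 highest Ct, among them *Gcdh*, *Acadsb* and *Mut*. *Gcdh* itself was 0.506 and 0.882 cycles above its mean there, the fifth largest sum of 74, and *Acadsb* was 0.216 and 0.194 above. The part of these plates in the values of *Gcdh* was not tested. Without both, a choice made after seeing the data, the log2 fold change of *Gcdh* was -0.060, that of *Mcee* -0.024, that of *Acadsb* -0.097, that of *Mut* -0.13 and that of *Aldh2* -0.16, the lowest of the 5.

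**Figure D4:**
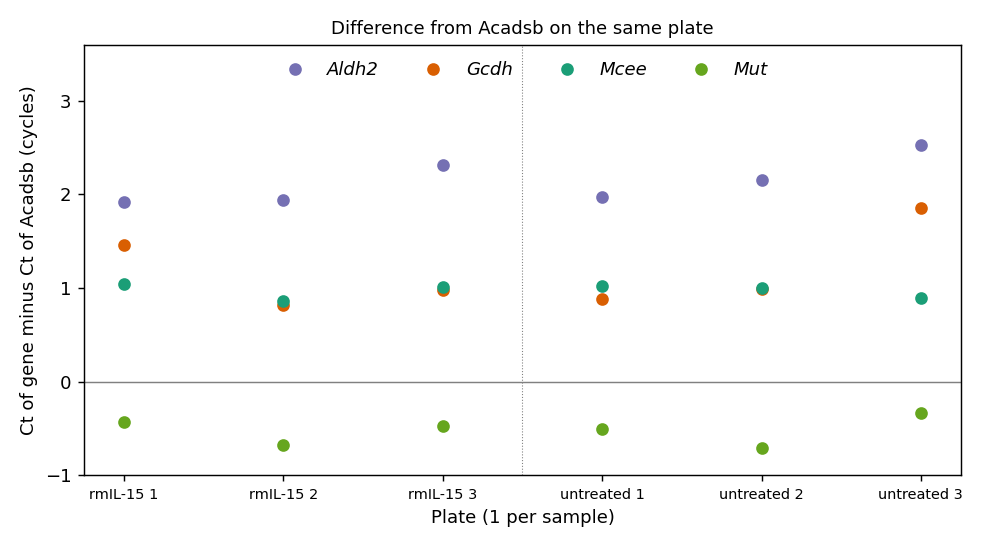
Ct of *Mut*, *Mcee*, *Gcdh* and *Aldh2* minus that of *Acadsb* on the same plate (cycles), for 3 rmIL-15 plates and 3 untreated plates. *Mcee* stays within 0.87 to 1.05 cycles, while *Gcdh* is at 1.46 in rmIL-15 replicate 1 and 1.85 in untreated replicate 3 and under 1 on the other 4 plates.

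Outside the 5 genes themselves, the wells that ran most like each of them were found by the SD, over the 6 plates, of the difference in Ct, which is a description. *Decr2*, the peroxisomal dienoyl-CoA reductase, was the closest of these other genes to both *Acadsb* (SD 0.0545 cycles) and *Mcee* (0.0936), although *Acadsb* and *Mcee* were closer to each other (0.0743) than *Decr2* was to *Mcee*. Next among the other genes were *Crot*, carnitine octanoyltransferase, for *Acadsb* (0.0980) and *Prkab2*, a subunit of AMP-activated kinase, for *Mcee* (0.114). *Mut* ran with *Echs1*, the short-chain enoyl-CoA hydratase (0.0824), and *Crat*, carnitine acetyltransferase (0.0846). *Gcdh* ran with *Acad10*, another member of the acyl-CoA dehydrogenase family (0.0913), and with *Gyk*, glycerol kinase (0.114), both of them also late in rmIL-15 replicate 1 and untreated replicate 3. Nearest to *Aldh2* were *Acot8*, a peroxisomal thioesterase (0.152), and *Acadvl*, the very long-chain acyl-CoA dehydrogenase (0.154). Both were farther off than the wells named for the other genes, though the lower quartile over all 2701 pairs was 0.249.

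Of 12 genes listed for shared or later steps of the same pathways, 5 had wells on the plate. All 5 were lower in sign relative to the well annotated *Gapdh*, with a median log2 fold change of -0.14. Over the 74 genes tested 53 were lower, with a median of -0.11. None of the 5 listed genes passed an unadjusted p under 0.05. With the well annotated *Gusb* 3 were lower, and 4 after each plate was centred on its median gene. *Echs1*, which acts in valine and isoleucine breakdown, was at -0.14 (standard error 0.10, adjusted p = 0.69 by limma). Its levels were 2.64 ± 0.031 (SD, n = 3) in rmIL-15 samples and 2.78 ± 0.088 (SD, n = 3) in untreated samples. The groups of *Echs1* did not overlap, as was so in this direction for 14.9% of the 74 genes tested. *Acat1*, the mitochondrial thiolase that ends isoleucine breakdown, was at -0.074 (standard error 0.32, adjusted p = 0.95 by limma). *Hadha*, of the mitochondrial trifunctional protein, and *Ehhadh*, the peroxisomal bifunctional enzyme, were at -0.23 and -0.19.

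The 7 relatives of *Acadsb* and *Gcdh* in the acyl-CoA dehydrogenase family had 4 members lower and 3 higher in sign, with a median of -0.083. With the other references 3 to 7 of them were lower. *Acadm*, which acts on medium chains, passed an unadjusted p under 0.05 at -0.40 (standard error 0.13, limma adjusted p = 0.47), where 9.46% of the 74 genes tested did. 1 member of the family passed after each plate was centred on its median gene, and no member of the family passed with the other 5 references. *Acads*, the short-chain enzyme, was at 0.19 (standard error 0.34, adjusted p = 0.87 by limma), with raw Ct of 25.30, 24.63 and 25.01 in rmIL-15 samples and 24.41, 24.73 and 26.46 in untreated samples. As in *Gcdh*, untreated replicate 3 had the latest Ct of *Acads*.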

How the data were processed

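Real-time PCR with SYBR green was run on 400 ng of RNA per sample, 1 plate of 96 wells for each of 3 rmIL-15 and 3 untreated samples. The deposited tables hold raw Ct (cycles) and the authors' normalized values on a log2 scale, which equal the Ct (at most 35) minus that of the well annotated *B2m*. Their table of fold changes and 6 further columns of per-sample values were not used. With 1 reading of a well per plate, assay error and the spread between samples cannot be told apart. All 89 RefSeq identifiers on the plate (84 genes and 5 references) matched the GRCm38.p6 gene table, 87 with the symbol unchanged.

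Wells later than Ct 35, or undetermined, were given a Ct of 35, and levels were taken relative to the well annotated *Gapdh*. Genes were tested if at least 1 group had Ct under 35 throughout, which left 74. They were fitted by limma 3.58.1 in R 4.3.3 (lmFit and eBayes), with Benjamini-Hochberg adjustment over all 74. The script was tested on simulated data. Figures were drawn with matplotlib 3.10.9 (Python 3.11.15). Alternatives were other references, Ct limits, filters, tests, the authors' values, a replicate block and left-out samples. Genes named are the 5, the 2 other genes whose wells ran most like each, and those of the gene lists. The 5 genes and the lists were chosen with earlier results of these data known. Values of some genes of the lists are not reported here.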

Additional observations from a re-analysis of the deposited data

How the results depend on the processing

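In 22 alternatives no adjusted p of the 5 genes, from limma or the methods' t-test, was under 0.05 (the lowest was 0.38, for *Mut*), and *Mut*, *Acadsb* and *Mcee* were lower in sign in each. Other Ct limits, filters, tests and the replicate block left the fold changes of the 5 genes unchanged, so no sign could differ there. Only other references and left-out samples could move these fold changes, and the authors' values repeat those relative to the well annotated *B2m*. With plates centred on their median Ct *Gcdh* was at 0.029 and *Aldh2* at 0.036 on the log2 scale, and with the well annotated *Gusb* at 0.075 and 0.081, which left 3 of the 5 genes lower. Of the 74 genes tested, 44 and 38 were lower with these references. When 1 sample was left out, the log2 fold changes were -0.22 to 0.13 for *Gcdh*, -0.12 to 0.083 for *Aldh2*, -0.28 to -0.070 for *Acadsb*, -0.30 to -0.033 for *Mcee* and -0.20 to -0.15 for *Mut*. 3 to 5 of the 5 genes were then lower, with 3 without untreated replicate 1. Of the 10 pairs, 0 to 1 did not overlap, *Aldh2* minus *Acadsb* without rmIL-15 replicate 3 and *Aldh2* minus *Mut* without untreated replicate 1. Groups separate more easily with fewer samples. The share of all pairs of tested genes that did so with 1 sample left out was not computed, so these pairs have no background here.

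At an unadjusted p under 0.05 the methods' t-test passed 1 of the 5 genes, *Mut* (p = 0.013, adjusted p = 0.38), and on the authors' normalized values, a choice made after seeing the data, 1 gene, *Acadsb* (p = 0.036, adjusted p = 0.62). Of the 74 genes tested, 7 passed this threshold with the methods' t-test, 4 with that test on the authors' values and 7 with limma. The limma count became 3 with the well annotated *B2m* or the authors' values and 2 with that annotated *Hsp90ab1*. It was 4 to 7 when 1 sample was left out, with 4 without rmIL-15 replicate 1. With the replicate number as a block 4 genes passed. Same-numbered samples did not deviate together (correlations of -0.27, 0.092 and -0.27), which gave no basis for pairing, and the block changed no call of the 5 genes.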

Other observations

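*Acsm3*, a medium-chain acyl-CoA synthetase among the liver markers on the plate, had raw Ct of 29.59, 27.33 and 27.71 in rmIL-15 samples and 27.38, 27.24 and 29.54 in untreated samples. It was latest on rmIL-15 replicate 1 and untreated replicate 3, the plates on which *Gcdh* was late, and the groups overlapped. The same was true of 39 of the 74 genes tested, which had their 2 highest Ct on these plates.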
